A study of Mus musculus with 9 samples.

Results

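The libraries of both anti-angiogenic treatments were taken as 1 group of 6, with equal weight for ABTAA and VEGF Trap, and compared with the 3 Fc libraries. All 9 libraries of the series entered the comparison, and every gene that passed a filter on low counts was tested, 14054 in all. Each library came from retinal pigment epithelium with choroid, taken from male mice of 8 weeks with laser-induced choroidal neovascularization (CNV), a lesion in which a burn ruptures the Bruch membrane and vessels grow in from the choroid. The lesion and a margin out to 2 times its diameter were cut out by laser capture, and QuantSeq libraries, which read the 3 prime ends of transcripts, were made from the RNA. Every eye carried 4 burns and received 5 µg of its reagent into the vitreous at 5 mg/ml, so that the laser injury and the injection were shared by the controls. The control reagent was Fc, an antibody fragment. ABTAA is an antibody that binds angiopoietin 2 and activates Tie2, and VEGF Trap is a soluble decoy receptor. The labels name no strain and no interval between burn, injection and collection. They do not link libraries to single mice either, so the p-values below describe the spread among these 9 samples, and that spread may be technical.

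Vascular growth in such lesions is driven by VEGF, which signals through its receptors on endothelial cells. The angiopoietins act on a second endothelial receptor, Tie2. Angiopoietin 1 activates it and favours quiet, sealed vessels, while angiopoietin 2 mostly blocks it in inflamed or growing vessels. Choroidal capillaries are fenestrated, lie against the pigment epithelium, and in a laser lesion are mixed with macrophages, pigment cells and scar matrix. A tissue sample of this kind holds all of these cells, so fewer cells of a type and less RNA per cell cannot be told apart.

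Library totals ran from 6335805 to 14439835 counts. Genes with any count numbered 16974, 16856 and 16996 in Fc 1, 2 and 3. In treated libraries they numbered 15968 (VEGF Trap 3) to 16796 (VEGF Trap 2), below every Fc library. The ribosomal precursor Rn45s held 10.05% to 11.8% of the counts in Fc and 11.7% to 15.82% in treated libraries. With Rn45s left out 524 genes were called in the comparison below. The part of the number of genes detected was not tested. Levels are given as CPM, read counts scaled to a common library size by the TMM method, and before that scaling 3 counts correspond to 0.208 to 0.473 CPM. These limits cover counting error only. Pigment epithelium genes were present in every library, with a summed level over 15 of them of 2790 to 4220 CPM in Fc and 3140 to 4110 CPM in treated libraries. Endothelial genes summed to 2300 to 2970 CPM in Fc and 2630 to 3590 CPM in treated libraries. Photoreceptor genes were low, at 111 to 166 CPM in Fc and 69.7 to 258 CPM in treated libraries. On the first principal component of all tested genes, which held 18.9% of the variance, Fc 1, 2 and 3 stood at -31.2, -27.4 and -16.1 and the 6 treated libraries between -8.7 and 27.9.

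Against Fc, 523 of the 14054 genes changed in the pooled treated group, 269 higher and 254 lower, by the quasi-likelihood test of edgeR at an adjusted p under 0.05. These are 3.72% of all genes tested, 1.91% higher and 1.81% lower, and the shares given for gene groups below are to be read against them. The changes were mostly small, with a median absolute log2 fold change of 0.57. In 468 of the 523 genes the Fc and treated libraries did not overlap, as against 10.5% of all tested genes, of which 5.22% had all treated libraries above Fc and 5.24% all below. The 523 genes were selected on the same libraries, so their separation follows largely from the selection. The median GC content was 55.8% in the genes that rose, 48% in those that fell and 50.8% over all tested genes, and after a correction for GC content 323 genes were called, 274 of them among the 523. The count became 155, 24 and 151 without Fc 1, 2 and 3, 236 without ABTAA 2 and 328 without VEGF Trap 3.

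The treatments were then compared with each other, since a pooled change can rest on 1 of them. No gene differed between ABTAA and VEGF Trap in the main edgeR fit after adjustment (0%), and 711 genes had an unadjusted p under 0.05, which is 5.06% of those tested. DESeq2 called 1 gene and limma-voom 0. Among the 523 pooled genes the median absolute difference between the treatments was 0.11 on the log2 scale, and the 95% interval of the difference excluded 0 in 49 of them (9.37%). The 2 contrasts against Fc share the same 3 control libraries, so their values are not given as an overlap. For some of the single genes below the values stand side by side, and for the others only the pooled value is given.

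**Figure D1:**
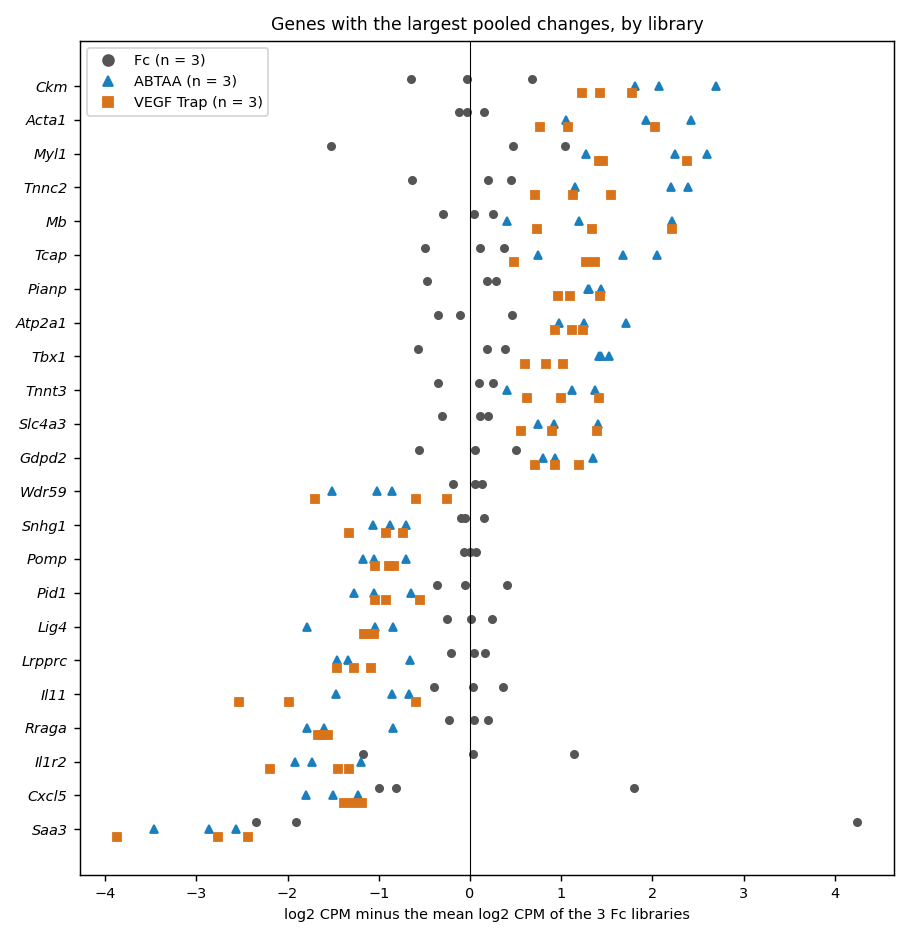
The largest changes among named genes, 12 increases and 11 decreases, as log2 CPM minus the mean log2 CPM of the Fc libraries. Each point is 1 library, and Fc 1 stands far to the right for Saa3 and Cxcl5, with 368 and 64.7 CPM.

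Genes that passed with any 1 library left out came first. There were 15 of them, 5 higher and 10 lower, and they include Gm5148, C330021F23Rik, D17H6S56E-5, St3gal5, Igfbp4, Fxyd1 and Ednrb, which lie outside the rule for named genes and were chosen after their values were seen. The largest decrease among the 15 was that of Rraga, which encodes the RagA GTPase that brings mTORC1 to the lysosome when amino acids are plentiful. Rraga stood at 107, 119 and 88.4 CPM in Fc 1, 2 and 3 and at 30.2 (lowest), 34 (median) and 58 (highest) CPM in the 6 treated libraries. All 6 treated libraries lay below all 3 Fc libraries, and the highest of them was ABTAA 3. The log2 fold change was -1.5 ± 0.16 (SE, adjusted p = 0.0007, edgeR), with -1.37 ± 0.20 under ABTAA and -1.63 ± 0.20 under VEGF Trap, and the interval of the difference between them ran from -0.17 to 0.68. Rraga lies on chromosome 4 from 86575668 to 86577285 of GRCm38, the assembly that mm10 names.

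Of 19 tested genes of the Rag GTPases, the Ragulator complex and mTORC1, Rraga fell, 1 rose and 17 did not pass, with a list median of 0.01. The gene that rose was Lamtor2, a Ragulator subunit, from 107 ± 9.74 to 149 ± 19.9 CPM (SD, n = 3 and 6), a log2 fold change of 0.47 ± 0.12 (adjusted p = 0.0413, edgeR). Outside that list, Wdr59, a subunit of the GATOR2 complex that acts upstream of the Rag GTPases, fell by 0.92 ± 0.24 on the log2 scale (adjusted p = 0.0478, edgeR). Its Fc libraries stood at 18.5, 17.6 and 14.9 CPM and its treated libraries at 5.22 to 14.2 CPM. The treatments gave -1.11 under ABTAA and -0.73 under VEGF Trap. Wdr59 passed in 2 and Lamtor2 in 3 of the 9 fits with 1 library left out, and neither passed with the GC correction.

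Pomp, the maturation factor that assembles the 20S proteasome, stood at 308, 295 and 282 CPM in Fc and at 131, 151 and 181 CPM (lowest, median and highest) in treated libraries. The groups did not overlap. Its log2 fold change was -0.94 ± 0.10 (adjusted p = 0.0007, edgeR), and the treatments gave -0.97 and -0.92, a difference with an interval from -0.31 to 0.22. Of 39 tested proteasome genes 3 fell, 1 rose and 35 did not pass (list median -0.08). The catalytic subunit Psmb7 fell by 0.80 ± 0.15 on the log2 scale (adjusted p = 0.0132, edgeR) and Psma4 of the outer ring by 0.46 ± 0.12, while the ATPase Psmc1 rose by 0.50 ± 0.11. Pomp lies on chromosome 5 from 147860461 to 147876456, and the last 200 bases of its transcript match those of Gm8702.

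Lrpprc, which binds and stabilizes mitochondrial mRNAs, stood at 49.9, 54.3 and 42 CPM in Fc and at 17.6, 19.6 and 30.8 CPM (lowest, median and highest) in treated libraries. The fall of 1.2 ± 0.16 on the log2 scale (adjusted p = 0.00403, edgeR) was seen in 6 of 6 treated libraries, with -1.13 under ABTAA and -1.27 under VEGF Trap. Of 24 genes of mitochondrial translation and mRNA stability 5 fell, 1 rose and 18 did not pass, with a median of -0.10. Among the 5 was Slirp, the binding partner of Lrpprc, at -0.49 ± 0.12 (adjusted p = 0.0402), which was chosen after its values were seen. Lars2, the mitochondrial leucyl-tRNA synthetase, stood at 142, 99.6 and 31.5 CPM in Fc 1, 2 and 3 and at 19.9 to 50.7 CPM in treated libraries. Fc 3 lay inside the treated range, and the pooled log2 fold change of -1.68 ± 0.33 (adjusted p = 0.0151, edgeR) became -1.2 with an adjusted p of 0.0861 without Fc 1. Complex I held 2 called genes of 37, Ndufb3 (-0.67 ± 0.12) and Ndufa10 (-0.58 ± 0.12), and complexes II to V held 3 of 38, Cox6b1, Cox7c and Atp5l (-0.54 to -0.47), and all 5 fell. The list medians were -0.10 and -0.07.

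Rps23, a protein of the small ribosomal subunit, fell by 0.81 ± 0.09 on the log2 scale (adjusted p = 0.00111, edgeR). In raw counts it held 2006, 2222 and 2221 in Fc 1, 2 and 3, 894, 1090 and 718 in ABTAA 1, 2 and 3, and 1280, 1525 and 705 in VEGF Trap 1, 2 and 3. The gene Gm5148, on chromosome 3, held nearly the same numbers, 1997, 2121 and 2203 in Fc, 814, 948 and 703 in ABTAA and 1086, 1409 and 650 in VEGF Trap, and fell by 0.92 ± 0.10. Across the 9 libraries the ratio of its counts to those of Rps23 was 0.848 to 0.996. C330021F23Rik, on chromosome 8, fell by 0.75 ± 0.10 and held 0.656 to 0.733 of the Rps23 counts. In the annotation an exon of Gm5148 overlaps Rps23-ps1 and an exon of C330021F23Rik overlaps Rps23-ps2, which are processed pseudogenes of Rps23 on the opposite strand. The 3 genes, all among the 15, may therefore hold the same reads and are uncertain, since the sources used here do not say how reads with several matches were assigned. Gm10012, whose transcript end matches Cox7c, likewise fell by 0.69 ± 0.12 beside Cox7c. Of 79 tested ribosomal protein genes 7 fell, 1 (Rpl32, 0.46 ± 0.10) rose and 71 did not pass, with a median of -0.10, and many of them have such copies.

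The 5 increases among the 15 genes were those of Pianp, Pmel, Igfbp4, Fxyd1 and Ednrb. Pianp, a ligand of the inhibitory receptor PILR-alpha, stood at 16.4, 10.4 and 17.6 CPM in Fc and at 28.2, 35.5 and 39 CPM (lowest, median and highest) in treated libraries, a log2 fold change of 1.21 ± 0.17 (adjusted p = 0.00484, edgeR). Igfbp4, a secreted binding protein of insulin-like growth factors, stood at 434, 347 and 409 CPM in Fc and at 540, 662 and 847 CPM in treated libraries (0.78 ± 0.11, adjusted p = 0.00504). Its log2 fold change was 0.92 under ABTAA and 0.64 under VEGF Trap, with an interval of the difference from 0.02 to 0.55 that did not pass adjustment. Ednrb, the endothelin B receptor, stood at 129, 135 and 117 CPM in Fc and at 165, 204 and 228 CPM in treated libraries (0.65 ± 0.10, adjusted p = 0.0068). In each of the 3 genes every treated library lay above every Fc library. Fxyd1, a regulator of the sodium pump, rose by 0.70 ± 0.11. Among the remaining decreases were those of St3gal5, the synthase of ganglioside GM3 (-0.86 ± 0.12), and D17H6S56E-5 (-0.80 ± 0.12). D17H6S56E-5 was -0.63 under ABTAA and -0.96 under VEGF Trap, with an interval of the difference from 0.03 to 0.64 that did not pass adjustment. Igfbp4 lies on chromosome 11 from 99041244 to 99054392, Ednrb on chromosome 14 from 103814625 to 103844402 and Pianp on chromosome 6 from 124996694 to 125003096.

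**Figure D2:**
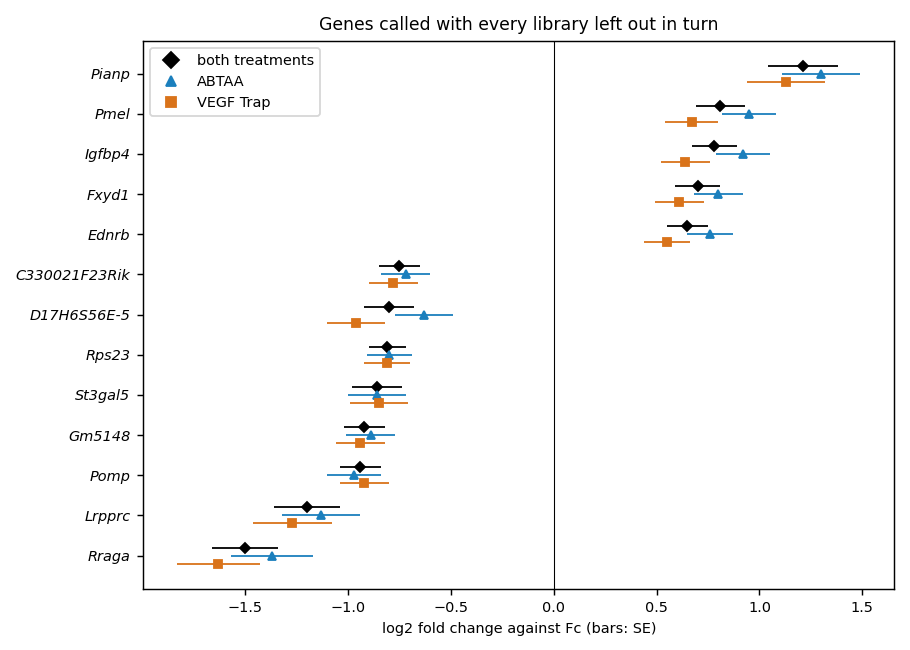
Log2 fold changes against Fc with their SE for 13 of the 15 genes called with each library left out in turn, for both treatments together and for each alone. The treatments lie on the same side of 0 for each gene shown, from Pianp at 1.21 to Rraga at -1.5 for the pooled value. The genes were selected on the pooled change and both treatments share the Fc libraries, so a shared sign follows largely from the selection.

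The largest increases were mostly those of skeletal muscle genes. Of 18 tested muscle genes 11 rose, 0 fell and 7 did not pass, where 1.91% of all tested genes rose, and the list median was 1.14 (1.25 under ABTAA and 1.02 under VEGF Trap) beside -0.01 over all tested genes. Acta1, the actin of the sarcomere, stood at 23.2, 21.9 and 26.3 CPM in Fc and at 40.5, 70.3 and 127 CPM (lowest, median and highest) in treated libraries. Ckm, the muscle creatine kinase, stood at 4.86, 1.95 and 2.98 CPM in Fc and at 7.13, 10.6 and 19.8 CPM in treated libraries. Neither gene overlapped between the groups. The log2 fold changes were 1.65 ± 0.29 for Acta1 (adjusted p = 0.0115, edgeR) and 1.78 ± 0.30 for Ckm (adjusted p = 0.00948). The calcium pump Atp2a1 (1.18), the troponins Tnnc2 (1.52) and Tnnt3 (1.02), the light chain Myl1 (1.64) and the titin cap Tcap (1.30) rose as well, as did myoglobin, Mb (1.5), which is outside the list. Ckm stood at 2.16 under ABTAA and 1.40 under VEGF Trap, with an interval of the difference from 0.11 to 1.4. Tnnc2 stood at 1.93 under ABTAA and 1.11 under VEGF Trap (0.18 to 1.46). For Acta1, Atp2a1, Tnnt3, Myl1, Tcap and Mb that interval included 0, and none of these differences passed adjustment. The summed level of the list was 180, 128 and 198 CPM in Fc 1, 2 and 3, 275, 550 and 437 CPM in ABTAA 1, 2 and 3, and 321, 446 and 250 CPM in VEGF Trap 1, 2 and 3, so that it moved with treatment across the whole comparison. With the logarithm of this total as a covariate 0 genes passed by edgeR (1239 at an unadjusted p under 0.05). In size the 523 changes then had a median of 0.57 on the log2 scale with a median SE of 0.23, against 0.57 and 0.12 without the covariate. Since this total differs between Fc and treated libraries without overlap, the fit cannot tell them apart, and its loss of calls says nothing about single genes. Without Fc 2 0 muscle genes passed, and 6 passed without Fc 1, Fc 3 or ABTAA 2.

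The promoters of the called muscle genes were searched for motifs known from muscle genes. RefSeq promoters on GRCm38.p6, from 250 bases before to 50 bases after the start, were matched for 9 of the 11 called genes. The E-box CAGCTG was in 6 of the 9 and in 16.1% of 27025 promoters, the CArG box in 2 of the 9 and in 1.57%, and TATAAA in 3 of the 9 and in 14.2%, each on either strand. A match is a description of these letters and not of a bound site. The muscle genes that were not called were not searched, so these shares do not bear on why the called ones rose. The promoters of Acta1, Ckm and Atp2a1 are printed because these genes have the smallest adjusted p of the list, with the 3 motifs in capitals.
Acta1, chr8:123894726-123895025, minus strand: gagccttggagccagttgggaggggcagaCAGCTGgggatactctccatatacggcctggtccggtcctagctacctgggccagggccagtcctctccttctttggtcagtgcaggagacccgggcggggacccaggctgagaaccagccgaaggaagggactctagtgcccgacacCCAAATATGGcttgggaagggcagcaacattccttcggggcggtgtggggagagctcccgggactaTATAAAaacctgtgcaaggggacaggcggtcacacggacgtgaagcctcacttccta
Ckm, chr7:19410844-19411143, plus strand: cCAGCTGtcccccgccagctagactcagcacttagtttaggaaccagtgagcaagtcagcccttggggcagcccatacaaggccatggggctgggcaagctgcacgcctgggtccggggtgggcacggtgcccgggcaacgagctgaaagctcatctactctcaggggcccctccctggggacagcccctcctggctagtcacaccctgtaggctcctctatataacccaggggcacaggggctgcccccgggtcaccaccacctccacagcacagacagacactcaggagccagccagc
Atp2a1, chr7:126463024-126463323, minus strand: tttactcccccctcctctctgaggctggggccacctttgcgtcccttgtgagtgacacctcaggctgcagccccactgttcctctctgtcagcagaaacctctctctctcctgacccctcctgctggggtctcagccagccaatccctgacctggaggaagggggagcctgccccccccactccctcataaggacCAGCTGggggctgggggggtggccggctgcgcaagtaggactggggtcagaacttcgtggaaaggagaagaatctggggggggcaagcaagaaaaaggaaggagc

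Some pigment genes rose too. Of 12 melanocyte and pigment genes 2 rose and 10 did not pass, with a median of 0.38. Pmel, which forms the fibrils of melanosomes, stood at 75.6, 96.6 and 94.8 CPM in Fc and at 138, 150 and 201 CPM (lowest, median and highest) in treated libraries, without overlap. Its log2 fold change was 0.81 ± 0.12 (adjusted p = 0.00582, edgeR), and its transcript end overlaps Dgka on the other strand. Tyr, the tyrosinase of melanin synthesis, rose by 1.04 ± 0.24 (adjusted p = 0.0296, edgeR), with ABTAA 3 at 9.7 CPM inside the Fc range of 6.96 to 11.1 CPM. Mitf, the transcription factor of pigment cells, stood at 0.06 ± 0.10 (adjusted p = 0.784). The hexamer CATGTG, part of the M-box that Mitf binds, is in 14.1% of all promoters and in that of Tyr, printed here with CATGTG and TATAAA in capitals.
Tyr, chr7:87493463-87493762, minus strand: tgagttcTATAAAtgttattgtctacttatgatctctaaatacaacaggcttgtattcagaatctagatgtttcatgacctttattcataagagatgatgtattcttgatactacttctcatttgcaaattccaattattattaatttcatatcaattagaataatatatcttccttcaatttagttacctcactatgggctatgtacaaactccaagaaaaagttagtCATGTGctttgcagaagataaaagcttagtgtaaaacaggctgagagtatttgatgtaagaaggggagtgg

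Of 15 genes of the pigment epithelium Krt18, a keratin, fell by 0.54 ± 0.12 on the log2 scale (adjusted p = 0.0276, edgeR), and 14 did not pass. Krt18 was -0.71 under ABTAA and -0.36 under VEGF Trap, with an interval of the difference from -0.66 to -0.05 that did not pass adjustment. Rpe65, the isomerase of the visual cycle, stood at 130, 173 and 202 CPM in Fc and at 177 to 274 CPM in treated libraries (0.42 ± 0.16, adjusted p = 0.161). The list median was 0.06.

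Some endothelial genes were higher under the pooled treatments. The list held 23 tested genes, of which 4 rose, none fell and 19 did not pass, with a median of 0.20 (0.28 under ABTAA and 0.07 under VEGF Trap). Eng, a co-receptor for TGF-beta and BMP9, stood at 304, 231 and 254 CPM in Fc and at 348, 406 and 502 CPM (lowest, median and highest) in treated libraries, a log2 fold change of 0.64 ± 0.11 (adjusted p = 0.00916, edgeR). Cldn5, the main claudin of endothelial tight junctions, stood at 28.9, 27.2 and 24.3 CPM in Fc and at 38.9, 42.1 and 53.5 CPM in treated libraries (0.73 ± 0.12, adjusted p = 0.00965). Plvap, the protein of fenestral diaphragms, stood at 82.6, 64.5 and 63.8 CPM in Fc and at 84.8, 105 and 134 CPM in treated libraries (0.61 ± 0.11, adjusted p = 0.0132). All 6 treated libraries lay above all 3 Fc libraries in these 3 genes. Egfl7, a secreted endothelial factor, rose by 0.38 ± 0.10 (adjusted p = 0.0467), with overlap between the groups. It was 0.55 under ABTAA and 0.21 under VEGF Trap, with an interval of the difference from 0.09 to 0.58.

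The endothelial increases were uneven between the treatments. ABTAA minus VEGF Trap was 0.30 for Eng, with an interval from 0.05 to 0.55, and 0.44 for Plvap, with an interval from 0.17 to 0.71, but no such difference passed adjustment. For Cldn5 the interval was -0.01 to 0.57. With the GC correction 2 endothelial genes passed, Eng (0.58, adjusted p = 0.0138, edgeR) and Cldn5 (0.56, adjusted p = 0.0265). Plvap did not pass in that setting (0.44, adjusted p = 0.0517). Without Fc 2, 0 endothelial genes passed, and the skeletal muscle total given above was higher in the same 6 libraries. With that total as covariate the log2 fold changes were 0.51 for Eng, 0.59 for Cldn5 and 0.47 for Plvap (adjusted p = 0.488, 0.488 and 0.532, edgeR), the list median was 0.04, and no gene of any list passed. The part of the muscle total cannot be told apart from treatment in these libraries.

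Genes of the targeted pathways did not pass in the main edgeR fit, although a few passed in other settings, some of them also by edgeR. Of 12 genes of angiopoietin-Tie signalling 0 passed (median 0.06), and of 10 VEGF ligands and receptors 0 passed (median -0.01). The pooled log2 fold change of Tek, the Tie2 gene, was 0.20 ± 0.21, with a 95% interval from -0.24 to 0.64. That of Kdr, the main VEGF receptor, was -0.02 ± 0.12 (-0.28 to 0.24), that of Flt1 0.14 ± 0.13 (-0.12 to 0.41), that of Vegfa -0.04 ± 0.12 (-0.29 to 0.21) and that of Angpt2 0.05 ± 0.20 (-0.37 to 0.46). The pooled values of Kdr and Angpt2 average treatments of opposite sign. Kdr stood at 0.20 under ABTAA and -0.24 under VEGF Trap, with an interval of the difference from 0.14 to 0.74. Angpt2 stood at 0.30 under ABTAA and -0.20 under VEGF Trap (0.01 to 0.99). Kdr, Vegfa and Angpt2 changed sign with the setting. Angpt1 stood at 176, 169 and 186 CPM in Fc and at 193 to 214 CPM in treated libraries, without overlap, at 0.22 ± 0.09 (adjusted p = 0.181, edgeR), and it passed with the GC correction (0.37, adjusted p = 0.0363). Pgf, placental growth factor and a ligand that VEGF Trap binds, stood at 0.47 ± 0.13 (adjusted p = 0.0582), and it passed with DESeq2 (adjusted p = 0.0111), with limma-voom (0.025), without a filter (0.0156) and with the 6 treated libraries as 1 group (0.0484). Of 16 sprouting and tip cell genes 0 passed in the main edgeR fit, with a median of -0.05. DESeq2 and limma-voom each called 1 higher and 1 lower. So did edgeR without a filter, with the replicate block and with counts divided by their common divisor. Pecam1 and Cdh5, adhesion molecules of endothelial junctions, stood at 0.26 ± 0.09 (adjusted p = 0.124) and 0.06 ± 0.13 (adjusted p = 0.87). Pecam1 was 0.45 under ABTAA and 0.07 under VEGF Trap, with an interval of the difference from 0.16 to 0.60. Cdh5 was 0.28 under ABTAA and -0.17 under VEGF Trap (0.12 to 0.78). For Tek, Flt1, Vegfa, Angpt1 and Pgf the interval of the difference included 0. None of these differences between the treatments passed adjustment in the main edgeR fit.

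Of 15 pericyte and smooth muscle genes 2 rose. These were the muscle filament desmin (Des, 0.72 ± 0.19, adjusted p = 0.0448, edgeR), which skeletal muscle also expresses, and the myosin light chain Myl9 (0.47 ± 0.11, adjusted p = 0.034). Myl9 stood at 0.71 under ABTAA and 0.22 under VEGF Trap. The interval of that difference ran from 0.22 to 0.76 but did not pass adjustment. Its VEGF Trap libraries, at 62.3, 74 and 70.8 CPM, overlapped Fc at 61.3, 52.2 and 64.3 CPM. Each of the 2 genes passed in 2 of the 9 fits with 1 library left out. Of 18 basement membrane genes, Hspg2, the proteoglycan perlecan, rose from 209 ± 56 to 343 ± 42.9 CPM (SD, n = 3 and 6, log2 0.71 ± 0.14, adjusted p = 0.0151) and the integrin ligand Npnt by 0.72 ± 0.13, while the laminin chain Lamb1 fell by 0.49 ± 0.10. Hspg2 did not pass with the GC correction. Npnt was 0.55 under ABTAA and 0.89 under VEGF Trap, with an interval of the difference from -0.65 to -0.02 that did not pass adjustment. Of 20 collagen and fibrosis genes Col6a1 rose by 0.47 ± 0.11, and 19 did not pass. Col6a1 was 0.62 under ABTAA and 0.31 under VEGF Trap, with an interval of the difference from 0.04 to 0.57 that did not pass adjustment. In the list of matrix proteases and their inhibitors, Plau, the urokinase, rose from 13.6 ± 1.5 to 24.7 ± 3.45 CPM (0.86 ± 0.15, adjusted p = 0.0119). Timp2 rose by 0.50 ± 0.11, and 13 of the 16 genes did not pass.

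**Figure D3:**
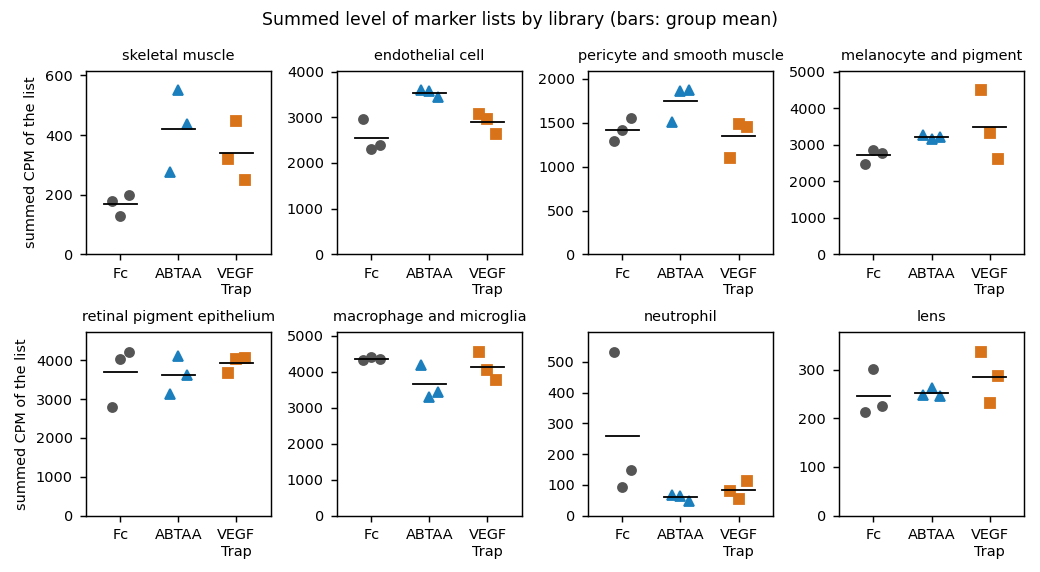
Summed CPM of 8 marker lists in each library, with a bar at the group mean. Skeletal muscle runs from 128 to 198 CPM in Fc and from 250 to 550 CPM under treatment, and the neutrophil list is highest in Fc 1, at 533 CPM.

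Of 21 macrophage and microglia genes 2 fell, 0 rose and 19 did not pass, with a median of -0.20. These were Fcgr3, an activating receptor for IgG, at 240, 191 and 222 CPM in Fc and 126 to 186 CPM under treatment (-0.56 ± 0.11, adjusted p = 0.0156), and the complement chain C1qb (-0.42 ± 0.11, adjusted p = 0.0394). Neither passed without any 1 of the Fc libraries. The general macrophage markers Adgre1 (0.07 ± 0.13), Cd68 (0.15 ± 0.10) and Csf1r (0.09 ± 0.10) did not pass. Their values lie above 0, while the list median is below 0 and its highest member is at 0.18. Adgre1 was -0.12 under ABTAA and 0.25 under VEGF Trap, with an interval of the difference from -0.69 to -0.05 that did not pass adjustment. In other settings more or fewer genes of the list fell. These were 6 with DESeq2 and without a filter, 5 with the replicate block, 4 with limma-voom and 1 with a single treated group. The summed level of the list was 4320 to 4410 CPM in Fc and 3300 to 4560 CPM under treatment. Cd68 and Csf1r were chosen after their values were seen. C4b, the fourth complement component, rose from 61.3 ± 2.63 to 90.8 ± 6.26 CPM (0.57 ± 0.10, adjusted p = 0.0122), and its transcript end is shared with C4a.

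Arg1, the arginase of alternatively activated macrophages, fell by 0.93 ± 0.21 on the log2 scale (adjusted p = 0.0269, edgeR). Its Fc libraries stood at 83.1, 50.2 and 91.5 CPM, its ABTAA libraries at 24.3, 32.5 and 27.4 CPM and its VEGF Trap libraries at 60.4, 33.6 and 73.1 CPM. The ABTAA libraries all lay below Fc, and 2 VEGF Trap libraries lay inside the Fc range. The difference between the treatments was -0.98, with an interval from -1.53 to -0.43 that did not pass adjustment, and the pooled value was -0.85 with an adjusted p of 0.0959 without Fc 1.

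The acute-phase and neutrophil genes rested on Fc 1. Saa3, a serum amyloid made in inflamed tissue, stood at 368, 3.82 and 5.19 CPM in Fc 1, 2 and 3 and at 1.33 to 3.6 CPM in treated libraries. Its pooled log2 fold change of -5.64 ± 1.01 (adjusted p = 0.0119, edgeR) became -0.82 ± 0.40 (adjusted p = 0.342) without Fc 1. S100a9, a calcium-binding protein of neutrophils, stood at 197, 35 and 54.7 CPM in Fc and at 13.3 to 36.3 CPM under treatment, and went from -2.12 ± 0.39 (adjusted p = 0.013) to -1.03 ± 0.26 (adjusted p = 0.0678). The other genes of this kind moved in the same way. Without Fc 1, S100a8 went from -1.99 to -0.70, the neutrophil chemokines Cxcl5, Cxcl1 and Cxcl2 from -1.98, -2.43 and -3.50 to -0.49, -0.82 and -0.49, the cytokine Il1b from -1.69 to -0.94 and the decoy receptor Il1r2 from -1.90 to -1.17, and none of them passed by edgeR (adjusted p from 0.0678 to 0.82 with Saa3 and S100a9 included). Of the neutrophil list 4 genes passed the low-count filter, and 2 of these fell. The list summed to 533 CPM in Fc 1, 92.3 and 147 CPM in Fc 2 and 3, and 49.1 to 114 CPM under treatment. Treated libraries were below Fc 2 and Fc 3 as well for Saa3, Cxcl5 and Il1r2, but not for the remaining genes. Il11, a cytokine of the interleukin 6 family, fell by 1.29 ± 0.33 (adjusted p = 0.0409), from 13.5, 10.7 and 7.94 CPM in Fc to 1.81 to 6.93 CPM. Without Fc 1 its value was -1.09 (adjusted p = 0.17, edgeR), and it passed in 2 of the 9 fits with 1 library left out.

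**Figure D4:**
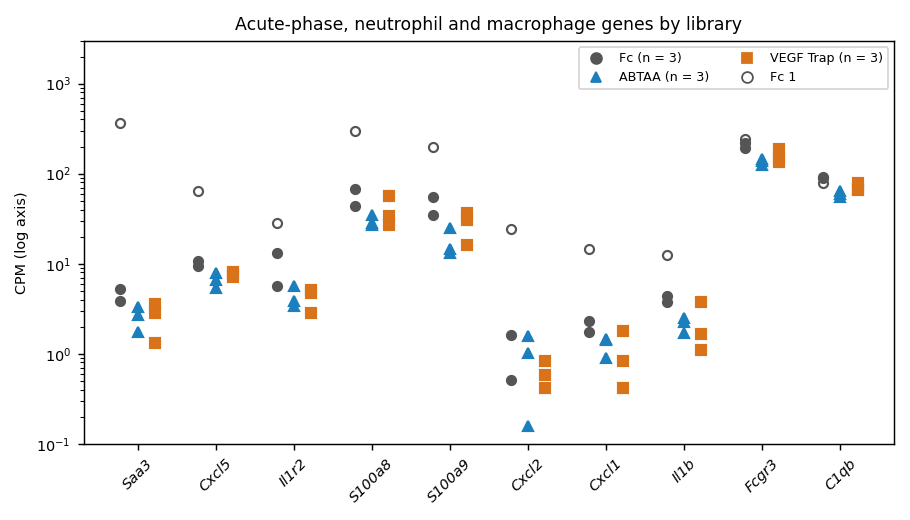
CPM by library on a log axis for acute-phase, neutrophil and macrophage genes, with Fc 1 as open circles. Fc 1 is the highest Fc library for each gene shown except C1qb, at 368 CPM for Saa3 and 240 CPM for Fcgr3.

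Of 12 heat shock genes 3 fell, the mitochondrial chaperonin Hspd1 (-0.57 ± 0.11, adjusted p = 0.0151, edgeR), the endoplasmic chaperone Hspa5 (-0.35 ± 0.08) and the cytosolic Hspa8 (-0.37 ± 0.09), and 9 did not pass. Of 16 immediate early genes Jund (0.54 ± 0.10) and Egr3 (0.75 ± 0.18) rose. Neither passed with the GC correction, and they passed in 7 and 5 of the 9 fits with 1 library left out. Ccna2, a cyclin of S phase, was the 1 of 18 proliferation genes that fell (-0.58 ± 0.15, adjusted p = 0.0478), and its transcript end overlaps that of Exosc9 on the other strand, which fell by 0.77 ± 0.16, so that the 2 could not be told apart without strand. Exosc9 was -0.55 under ABTAA and -0.99 under VEGF Trap (interval of the difference 0.01 to 0.87). Ccna2 passed in 2 of the 9 fits with 1 library left out, and it did not pass with the GC correction. Lig4, the ligase of double-strand break end joining, stood at 10.8, 12.9 and 15.2 CPM in Fc and at 3.72 to 7.14 CPM under treatment (-1.16 ± 0.21, adjusted p = 0.0122), and 9 other genes of that pathway did not pass. Among guidance genes of the netrin and Slit families Ntn1 (0.73 ± 0.19) and the netrin receptor Neo1 (0.42 ± 0.10) rose, and the netrin receptor Unc5c fell (-1.31 ± 0.26, adjusted p = 0.0151), with -0.85 under ABTAA and -1.78 under VEGF Trap. The interval of that difference ran from 0.23 to 1.62 but did not pass adjustment. ABTAA 1, at 13.2 CPM of Unc5c, lay above Fc 3, at 12.8 CPM. Ntn1 passed in 1, Neo1 in 3 and Unc5c in 7 of the 9 fits with 1 library left out. The tight junction gene Tjp3 rose by 0.95 ± 0.24 and passed in 3 of those 9 fits. Neither Ntn1 nor Tjp3 passed with the GC correction. Of the 37 lists 10 held no called gene, among them those of hypoxia and glycolysis (20 genes), interferon response (15 genes), photoreceptors (14 genes), Schwann cells (10 genes), erythrocytes (7 genes), lens (6 genes) and MHC class II (7 genes).

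**Figure D5:**
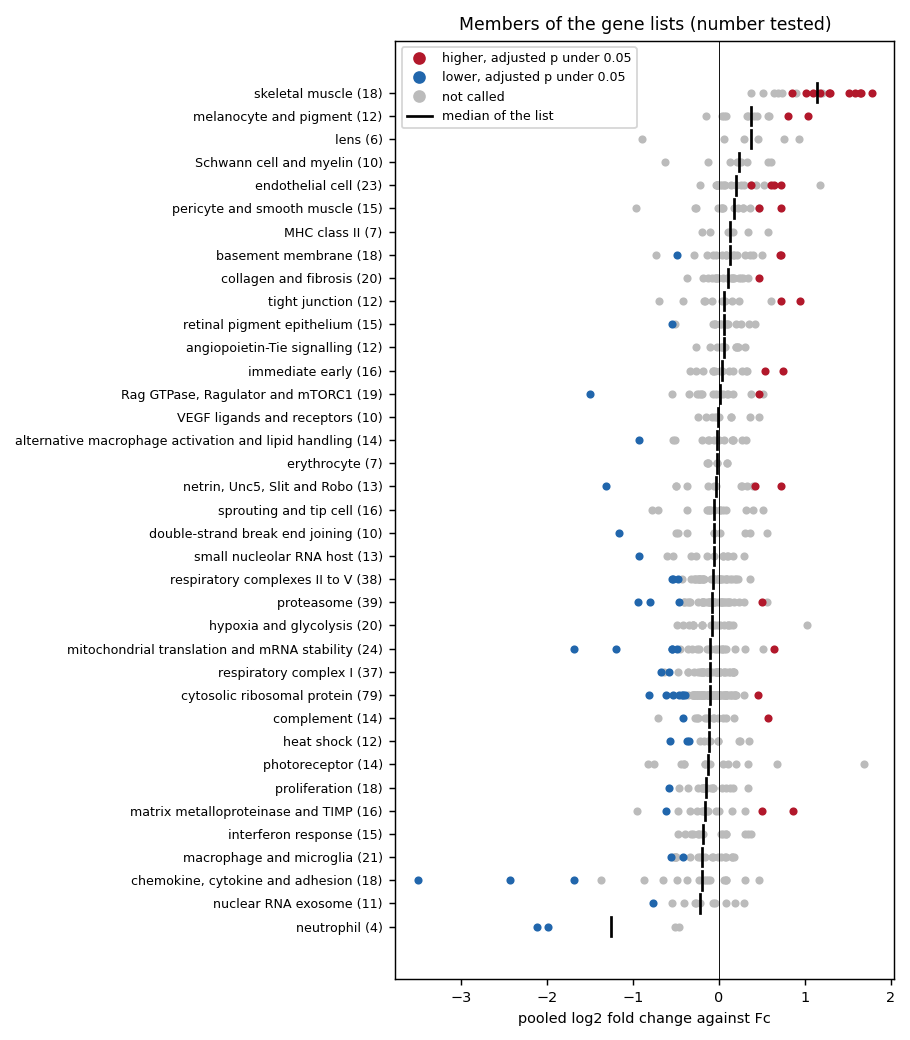
Pooled log2 fold change of each tested member of the 37 lists, red where higher and blue where lower at an adjusted p under 0.05, with a black bar at the list median. Skeletal muscle has the highest median, 1.14, and the neutrophil list the lowest, -1.25, the latter over 4 genes.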

How the data were processed

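RNA from 9 laser-captured samples, 3 each for Fc, ABTAA and VEGF Trap, was read from 500 ng of total RNA with a QuantSeq kit, per the labels' protocols. Each deposited table gives raw counts, whole numbers that were not normalized, for 24421 gene symbols, with Bowtie2, edgeR and mm10 named in the submitters' processing notes. The sources used here do not give versions, the annotation, the counting tool, the strand setting or the handling of reads with several matches. Groups came from the sample titles. The value columns of the Fc tables are headed as knockout controls, which differs from those titles. Of 14167 genes with a count in each library, 1616 (11.4%) had only even counts.

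Low counts were removed with filterByExpr. After TMM scaling, edgeR 4.0.16 in R 4.3.3 fitted 1 quasi-likelihood model with 3 groups and 6 residual degrees of freedom. The contrast was the mean of ABTAA and VEGF Trap minus Fc, with Benjamini-Hochberg adjustment over 14054 genes and a threshold of 0.05. The biological coefficient of variation was 17.9% and the median SE 0.18 on the log2 scale. Each SE is the size of the log2 fold change divided by the root of its F statistic, and intervals cover 95%. The test was run on simulated counts first. The alternatives were DESeq2 1.42.0, limma-voom (limma 3.58.1), RLE scaling, library totals, other filters, 1 treated group, a fold of 1.2, a replicate block, a GC correction, counts divided by their common divisor, the muscle total as covariate and the omission of each library; leaving out the ribosomal precursor Rn45s was added after seeing the data. The members and the 37 gene lists were chosen with earlier results of these data known.

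Named genes were the 12 largest increases and the 12 largest decreases past the threshold with at least 10 CPM on the higher side, no overlap between Fc and treated libraries and an established symbol, up to 4 called members of each list by p, and a fixed set of 14 vascular, pigment epithelium and macrophage genes. Some genes that the rule names are not reported here. Coordinates are from GENCODE M21 on GRCm38, where 23376 symbols were found as written and 668 through an older symbol, and 377 were not found. Transcript ends were compared with BLAST+ 2.17.0 over the last 200 bases. A copy was an alignment of 100 bases or more with 95% identity.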

Additional observations from a re-analysis of the deposited data

Results flagged for a closer look

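In 125 sets of 6 treated libraries, 1 for each named gene and each list total, 9 held a library far from the other 5 (Dixon's test), where chance gives about 1 in 20. The groups of 3 were not tested. ABTAA 3 was high for Rraga (58 CPM, the others 30.2 to 35.4), for Lars2 (50.7 CPM, the others 19.9 to 28.8) and for Cox6b1 (87 CPM, the others 69.5 to 75.2). ABTAA 2 was high for Atp2a1 (28.1 CPM, the others 16.3 to 20.3), and ABTAA 1 was low for Vegfa (234 CPM, the others 291 to 317). VEGF Trap 3 was high for S100a8 (55.9 CPM, the others 26.6 to 35.1) and for Psmc1 (261 CPM, the others 186 to 210), and low for the summed angiopoietin-Tie list (682 CPM, the others 760 to 799). VEGF Trap 1 was high for the summed heat shock list (5680 CPM, the others 4720 to 5070).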

How the results depend on the processing

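The 523 genes (269 higher, 254 lower) became 1068 (579 and 489) with DESeq2, 867 (435 and 432) with limma-voom, 1021 (513 and 508) without a filter, 323 (159 and 164) with the GC correction, 12 (4 and 8) against a fold of 1.2 and 0 (0 and 0) with the muscle total as covariate. Library totals alone gave 174 higher and 420 lower, 29.3% higher where TMM gave 51.4%, and moved the median of all genes from -0.01 to -0.07. Leaving out 1 library gave 24 to 720 genes, 5 to 385 higher and 19 to 335 lower. Genes differing between ABTAA and VEGF Trap were 1 with DESeq2, 30 without a filter and 1 with the replicate block, with or without the GC correction, and 0 in each omission. The cause of these changes was not tested. The replicate block gave 706 genes, and 483 with the GC correction. Same-numbered libraries correlated by 0.01 to 0.11 after removal of group means, and 9 of 9 were closest to their own number, a hint from the data and not from the design.

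List medians changed sign in some setting for 15 of 37 lists. Of 76 called named genes 7 passed without each library in turn, and none passed in all 23 settings, since the muscle covariate ended every call. That covariate turned Myl1 to -0.19, Mb to -0.18, Tcap and Tnnt3 to -0.10, Tek to -0.10, Angpt2 to -0.11, and Tie1 and Cdh5 to 0. Myl1, Tcap and Tnnt3 are themselves part of the muscle total, so a value near 0 follows for them largely from the covariate itself. Uncalled genes near 0 also changed sign: Tie1 to 0.04 with limma-voom, Angpt2 to -0.02 and Cdh5 to 0 with library totals, and Kdr to 0.05 with the GC correction and 0.04 with block and GC correction together. Without single libraries Tie1 ran from -0.17 to 0.22, Kdr from -0.07 to 0.05, Angpt2 from -0.11 to 0.18, Vegfa from -0.14 to 0.11, Cdh5 from -0.07 to 0.24 and Adgre1 from -0.06 to 0.22. Genes under about 0.208 to 0.473 CPM lie below 3 counts in a library.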
